A study of Mus musculus with 9 samples.

Results

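The creatine and adenylate kinase energy shuttle is described here by 8 genes, Ckm, Ckmt2, Ckb, Slc6a8, Gatm, Gamt, Ak1 and Ak3, out of 30142 genes measured in infarcted mouse hearts. The genes were listed by name, each was read from a probe set with 1 gene symbol, and all 8 had exactly 1 such probe set. Each of the 9 arrays holds RNA of whole heart from nude mice, which lack T cells, taken 6 weeks after treatment. In all groups the left anterior descending artery had been tied permanently, and mice with an ejection fraction below 50% were treated 3 weeks later. The vesicle group (3 arrays) received the extracellular vesicles that 500000 cardiovascular progenitor cells release in 48 hours. The cell group (3 arrays) received 500000 of these cells. The control group (2 arrays) received the culture medium alpha-MEM, and the sham heart (1 array) had the needle inserted 3 times without injection. The sham heart was therefore infarcted too, and no uninfarcted heart is among the arrays. Titles place vesicle, cell and control array 1 and the sham array in an experiment numbered 9, and the other 5 arrays in an experiment numbered 1. Nothing in the labels says that each array is a separate animal, so p-values measure only the spread between these arrays.

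Heart muscle carries energy from its mitochondria to its contractile filaments as phosphocreatine. Mitochondrial creatine kinase charges creatine with phosphate from newly made ATP, and cytosolic creatine kinase at the filaments and pumps turns it back into ATP. Creatine is made mainly in kidney and liver and is taken up from the blood by a transporter in the muscle cell membrane. Adenylate kinases form a parallel route, in which a pair of ADP molecules gives ATP and AMP.

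The 8 genes kept to a narrow band over the 9 arrays: the distance between the highest and the lowest array was 0.23 log2 units for Ckm, 0.23 for Ckmt2, 0.21 for Ckb, 0.22 for Slc6a8, 0.49 for Gatm, 0.035 for Gamt, 0.19 for Ak1 and 0.23 for Ak3. The median of this distance over 6667 genes above background was also 0.23. In folds, Ckm spanned 1.17-fold and Gatm, the widest, 1.40-fold. No member passed a test in any comparison. The lowest unadjusted p was that of Ckm, the muscle-type cytosolic creatine kinase, in vesicles minus cells, where its 3 vesicle arrays all lay below the 3 cell arrays. That order held for 2.56% of all genes, and the adjusted p of Ckm there was 0.92 by limma.

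Background was taken as the 95th percentile over the array's negative control probes, which lay between 7.18 and 7.28 on the log2 scale across arrays. Of the 8 genes, 6 were above it on all 9 arrays. Gatm and Gamt, the creatine-making enzymes, were above it on 0 of 9 arrays, so all their values in this report lie under the background level. The labelled tissue fitted its markers, since all 9 measured genes of the heart muscle list were above background on all arrays. All 10 skeletal muscle markers, led in spread by the calcium buffer Pvalb and the myosin-binding Mybpc2, were below it on all arrays. Lung transcripts set vesicle array 3 apart: Sftpc, a surfactant protein of the lung, stood at 9.75 there and as low as 4.28 elsewhere, and Scgb1a1, a secretory protein of the airways, stood at 8.90 there and as low as 4.64 elsewhere. The mean log2 level of the 5 lung genes was 7.96 on vesicle array 3 and 5.58 on the sham array, and it lay between 4.96 and 5.08 on the other 7.

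The promoters of the creatine kinase genes are shown because the muscle pair, Ckm and Ckmt2, had more similar profiles over the 9 arrays than either had with Ckb. The root mean square difference of their gene-centred log2 values was 0.059, against 0.092 between Ckmt2 and Ckb and 0.10 between Ckm and Ckb. A distance of that size was not particular to this pair: it was 0.058 between Gamt and Ak1 and 0.062 between Ckmt2 and Ak1. Ak1, however, was nearer to its own mean (0.055) than to either gene, and Gamt was nearly flat (0.0093 from its own mean). On the same measure Ckm was 0.0795 and Ckmt2 0.0682 from its own mean. Each promoter window runs from 250 bases before to 50 bases after the gene start, 5′ to 3′ in the direction of the gene. The windows are from RefSeq on GRCm38.p6, where 7 of the 8 members had an entry. Capitals mark the E-box CANNTG, the motif bound by muscle and other helix-loop-helix factors. They also mark the TATA box, in the form TATAAA only. Each motif was searched on both strands. Ckm lies at chr7:19410844-19411143 (+ strand), Ckmt2 at chr13:91876836-91877135 (− strand) and Ckb at chr12:111672289-111672588 (− strand).
Ckm: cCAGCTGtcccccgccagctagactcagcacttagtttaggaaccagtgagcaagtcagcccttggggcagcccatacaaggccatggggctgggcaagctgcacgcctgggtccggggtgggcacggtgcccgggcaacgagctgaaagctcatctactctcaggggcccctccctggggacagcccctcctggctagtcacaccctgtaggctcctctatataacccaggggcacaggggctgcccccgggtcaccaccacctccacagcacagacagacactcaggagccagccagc
Ckmt2: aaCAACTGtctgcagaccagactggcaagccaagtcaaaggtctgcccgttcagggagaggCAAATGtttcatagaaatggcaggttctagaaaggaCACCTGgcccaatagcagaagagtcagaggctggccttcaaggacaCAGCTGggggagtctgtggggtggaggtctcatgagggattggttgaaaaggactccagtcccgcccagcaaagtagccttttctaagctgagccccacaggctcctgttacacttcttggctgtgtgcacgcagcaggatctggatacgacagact
Ckb: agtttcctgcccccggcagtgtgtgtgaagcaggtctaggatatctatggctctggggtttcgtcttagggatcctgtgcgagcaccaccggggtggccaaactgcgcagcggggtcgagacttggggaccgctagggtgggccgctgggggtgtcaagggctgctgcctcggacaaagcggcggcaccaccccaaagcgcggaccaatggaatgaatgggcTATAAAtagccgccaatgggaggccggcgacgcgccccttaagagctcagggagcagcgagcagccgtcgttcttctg

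Ckmt2 had 4 E-boxes in this window, Ckm 1 and Ckb 0. Among 21262 promoter windows of protein-coding genes, 69.0% held at least 1 E-box and 14.7% held 3 or more. Ckb alone of these 3 genes held TATAAA, which begins 28 bases before its start and occurs in 12.6% of the windows. Only that exact string was searched, and the Ckm window holds TATATAA, a close variant. The strict CArG box, CCWWWWWWGG with W for A or T, was not found in the 3 windows, against 1.5% of all windows. Looser forms were not searched, and the Ckm window holds CCATACAAGG, which differs from the strict form at 1 base. These matches describe the sequence and were not tested against the expression values.

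Ckm encodes the creatine kinase of the M-line and myofibrils. It stood at 10.88, 10.79 and 10.82 on vesicle arrays 1, 2 and 3, at 10.98, 10.91 and 10.99 on cell arrays 1, 2 and 3, at 10.96 and 10.84 on control arrays 1 and 2, and at 10.76 on the sham array. The cell arrays were the high group and the vesicle arrays the low group of the injected hearts, with no overlap between these groups, while the control arrays lay across both. Vesicle arrays all below cell arrays were found for 2.56% of all genes. The sham array was the lowest of all 9.

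Ckmt2 encodes the sarcomeric mitochondrial creatine kinase, which sits between the mitochondrial membranes. It read 11.69, 11.69 and 11.52 after vesicles, 11.74, 11.68 and 11.74 after cells, 11.75 and 11.70 after medium and 11.62 in the sham heart. Vesicle array 3, the one with lung transcripts, was the lowest of the 9, and the cell and control arrays overlapped.

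Ckb encodes the brain-type cytosolic kinase, the form that prevails in the fetal heart and in smooth muscle and nerve. Its values were 7.82, 7.94 and 7.87 on the vesicle arrays, 7.78, 7.86 and 7.99 on the cell arrays, 7.81 and 7.92 on the control arrays and 7.80 on the sham array. The injected groups overlapped, the cell arrays spanning the widest band, and within each injected group the array of experiment 9 was the lowest.

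Slc6a8, the creatine transporter of the cell membrane, had 10.20, 10.15 and 10.15 in vesicle hearts, 10.05, 10.02 and 10.21 in cell hearts, 9.99 and 10.12 in control hearts and 10.12 in the sham heart. The lowest vesicle array (10.148) was above the higher control array (10.121), an order that was not counted over all genes. Cell array 3 was above all vesicle and control arrays.

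Gatm encodes the amidinotransferase that starts creatine synthesis. Its values were 6.35, 6.32 and 6.60 after vesicles, 6.31, 6.47 and 6.31 after cells, 6.18 and 6.67 after medium and 6.38 in the sham heart. The lowest and the highest of the 9 arrays were the control arrays of the 2 experiments. Gamt encodes the methyltransferase that completes creatine synthesis, and it lay between 6.54 and 6.58 on every array. On 6 of the 9 arrays its deposited value was the very same, 6.57, which narrows its spread and its standard errors.

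Ak1, the main cytosolic adenylate kinase of muscle, had 9.85, 9.96 and 9.77 on the vesicle arrays, 9.94, 9.88 and 9.84 on the cell arrays, 9.84 and 9.82 on the control arrays and 9.85 on the sham array. The lowest cell array (9.845) was just above the higher control array (9.837), an order that was not counted over all genes. The vesicle arrays held both the highest and the lowest value of the 9. Ak3, the GTP:AMP phosphotransferase of the mitochondrial matrix, had 9.20, 9.20 and 9.11 on the vesicle arrays, 9.18, 9.10 and 9.20 on the cell arrays, 9.28 and 9.04 on the control arrays and 9.19 on the sham array. As for Gatm, the control arrays held its extremes.

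**Figure D1:**
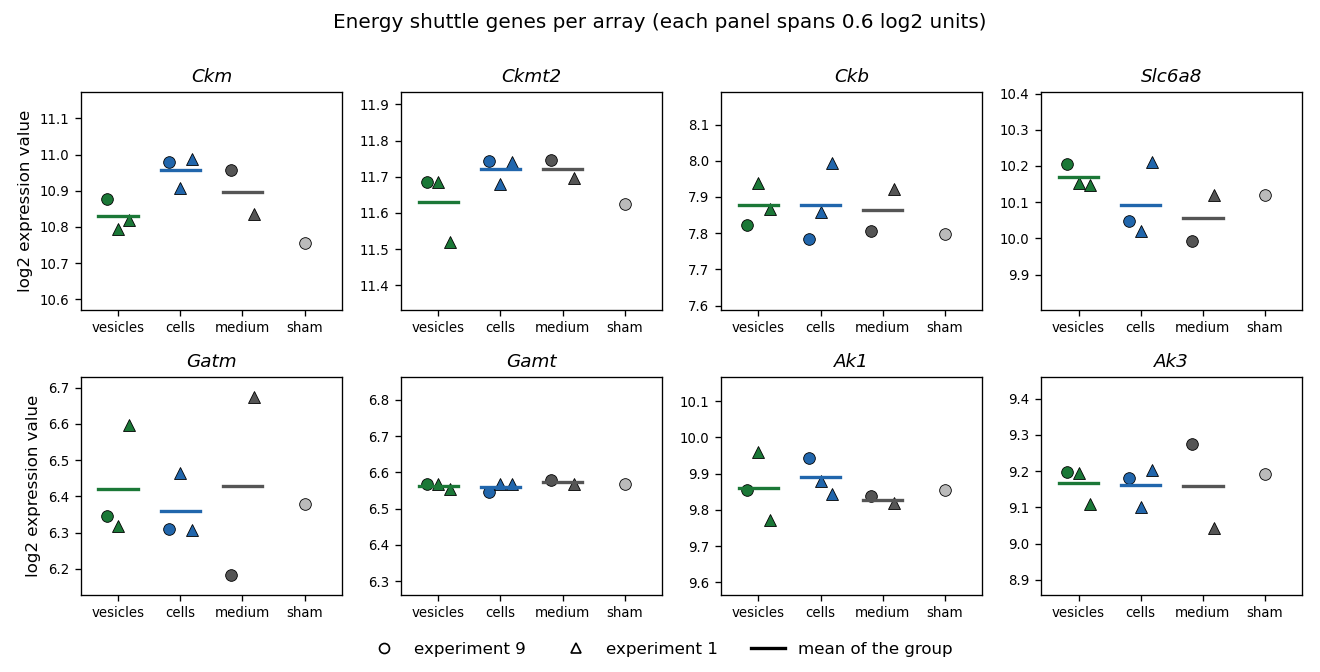
Log2 expression values of the 8 genes on each array, with vesicle, cell, medium and sham hearts from left to right. Circles are experiment 9, triangles experiment 1 and bars the group means. The Ckm panel shows the vesicle arrays (10.79 to 10.88) below the cell arrays (10.91 to 10.99), an order held by 2.56% of all genes.

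Vesicle hearts were set against medium hearts first. Ckm averaged 10.83 ± 0.043 on vesicle arrays (SD, n = 3) and 10.90 ± 0.085 on control arrays (SD, n = 2), a fitted log2 difference of −0.055 ± 0.034 (SE). Ckmt2 averaged 11.63 ± 0.096 on vesicle arrays and 11.72 ± 0.035 on control arrays, a difference of −0.083 ± 0.054. Both creatine kinases of muscle were below the control of their own experiment on 3 of 3 vesicle arrays, a pattern that 18.3% of all genes shared. Slc6a8 was above it on 3 of 3 arrays, as were 10.6% of all genes, at 10.17 ± 0.031 on vesicle arrays and 10.06 ± 0.090 on control arrays, a difference of 0.10 ± 0.070. The other 5 genes had differences of −0.0062 ± 0.048 for Ckb, −0.041 ± 0.13 for Gatm, −0.011 ± 0.017 for Gamt, 0.039 ± 0.061 for Ak1 and 0.025 ± 0.063 for Ak3.

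None of these differences passed limma's moderated test with Benjamini-Hochberg adjustment over all genes, the lowest adjusted p among the members being 0.69. The test called 0 of 8 members and 0% of all 30142 genes, and at an unadjusted p under 0.05 it took 0 members and 6.44% of all genes. The 95% intervals still bound what these arrays allow: 0.91- to 1.02-fold for Ckm, 0.86- to 1.04-fold for Ckmt2 and 0.95- to 1.22-fold for Slc6a8. The Ckmt2 difference was −0.037 without vesicle array 3 and −0.048 with sham counted as a control. The Slc6a8 difference was 0.047 without vesicle array 1, 0.050 without control array 1 and 0.17 without control array 2. Within experiments 9 and 1 the differences were −0.079 and −0.030 for Ckm, −0.062 and −0.096 for Ckmt2, and 0.21 and 0.030 for Slc6a8. For Ckm it was −0.024 without control array 1, −0.092 without control array 2 and −0.0057 with the sham array among the controls.

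Hearts given progenitor cells were set against the same medium hearts. Ckm averaged 10.96 ± 0.044 on cell arrays (SD, n = 3) against 10.90 ± 0.085 on control arrays (SD, n = 2), a fitted difference of 0.074 ± 0.034 (SE). Ak1 averaged 9.89 ± 0.050 on cell arrays and 9.83 ± 0.013 on control arrays, a difference of 0.067 ± 0.061. These 2 genes were above the control of their own experiment on 3 of 3 cell arrays, as were 8.86% of all genes. Differences for the others were 0.0084 ± 0.054 for Ckmt2, −0.0041 ± 0.048 for Ckb, 0.029 ± 0.070 for Slc6a8, −0.10 ± 0.13 for Gatm, −0.014 ± 0.017 for Gamt and 0.018 ± 0.063 for Ak3. No member was below its control on 3 of 3 cell arrays, a pattern of 17.5% of all genes.

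The limma test called 0 of 8 members and 0% of all genes after cells, with a lowest adjusted p of 0.682 among the members, and at an unadjusted p under 0.05 it took 0 members against 6.73% of all genes. The interval for Ckm ran from 0.99- to 1.12-fold and that for Ckmt2 from 0.91- to 1.11-fold. The Ckm difference was 0.047 without cell array 3 and 0.036 without control array 2, and 0.12 with the sham array among the controls. Ak1 stood at 0.035 without cell array 1. Within experiments 9 and 1 the differences were 0.024 and 0.11 for Ckm and 0.11 and 0.044 for Ak1, while Gatm and Ak3 had opposite signs in the 2 experiments. Both comparisons rest on the same 2 control arrays.

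Vesicles and cells were then set against each other, a difference that does not use the control values. Its standard errors and tests came from the same fit, whose spread includes the control arrays. Ckm lay lower after vesicles, at 10.83 ± 0.043, than after cells, at 10.96 ± 0.044 (SD, n = 3 each), a fitted difference of −0.13 ± 0.030 (SE), or 0.915-fold with a 95% interval from 0.868 to 0.964. Ckmt2 lay in the same direction with overlapping arrays, at −0.092 ± 0.048. Ckm was the 1 member whose vesicle arrays all lay below its cell arrays, which held for 2.56% of all genes, and no member had the reverse, which held for 1.85%. These shares include genes with identical values on 3 or more arrays (61.1% of all), and were not counted over genes above background. The unadjusted limma p of Ckm was 0.00696, and it did not pass limma's adjustment over all genes (adjusted p = 0.92). Limma called 0 of 8 members and 0% of all genes, and 1 member against 4.34% of all genes had an unadjusted p under 0.05.

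The Ckm difference had the same sign in both experiments, −0.10 in experiment 9 and −0.14 in experiment 1. It ranged from −0.15 to −0.10 when each array was left out in turn, and it was −0.082 after quantile normalization. Intervals for the remaining members included equality, from 0.93- to 1.08-fold for Ckb, 0.95- to 1.18-fold for Slc6a8, 0.89- to 1.08-fold for Ak1 and 0.91- to 1.11-fold for Ak3. The Ckmt2 difference without vesicle array 3 was −0.041.

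**Figure D2:**
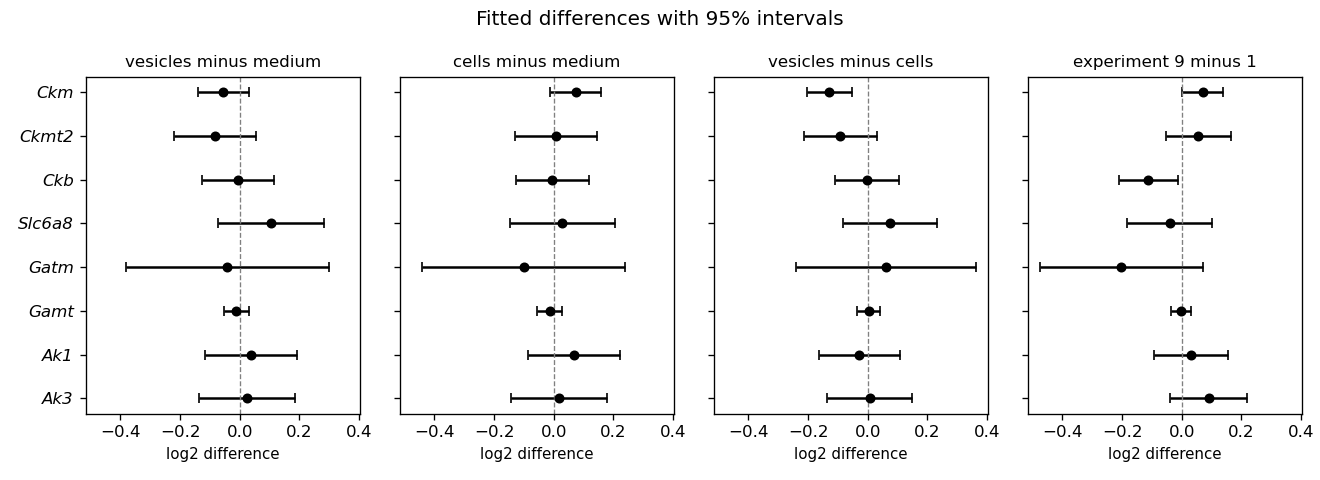
Fitted log2 differences of the 8 genes (points) with 95% intervals (bars) in the 4 comparisons, the dashed line marking no difference. The Ckm interval in vesicles minus cells and the Ckm and Ckb intervals in experiment 9 minus 1 do not reach the line, before any adjustment over genes.

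Heart muscle genes give the setting of the Ckm result. In bulk hearts, fewer muscle cells and less RNA per muscle cell cannot be told apart. The mean log2 level of the 9 heart muscle markers ran from 11.26 to 11.38 on vesicle arrays, from 11.31 to 11.41 on cell arrays, from 11.32 to 11.38 on control arrays and was 11.31 on the sham array. Vesicle array 3 was the lowest, with the light chains Myl3 at 10.39 and Myl2 at 9.44. Measured against this mean on the same array, Ckm was −0.50, −0.50 and −0.44 on the vesicle arrays and −0.43, −0.41 and −0.32 on the cell arrays. On this scale the nearest arrays of the 2 groups were vesicle array 3, at −0.4419, and cell array 1, at −0.4285. All genes were not counted on this scale. The part of heart muscle content in the Ckm difference was not tested. The control arrays stood at −0.42 and −0.48, and the sham array at −0.56.

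The balance between the brain-type and the muscle-type cytosolic kinase was followed as the difference Ckb minus Ckm on each array. Only its change between arrays can be read, since these are different probe sets. It was 0.097 higher on the vesicle array than on the control array in experiment 9 and 0.011 higher on the vesicle arrays in experiment 1. After cells minus medium it was −0.046 in experiment 9 and −0.11 in experiment 1. Over the 9 arrays it spanned 0.34. The difference Ckmt2 minus Ckm spanned 0.19, and Ak3 minus Ak1 spanned 0.22. No test was made on these differences.

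The experiment to which an array belonged was also fitted. At equal treatment the difference of experiment 9 minus experiment 1 was −0.11 ± 0.038 (SE) for Ckb, or 0.926-fold. Its 3 injected hearts of experiment 9 (7.78 to 7.82) all lay below the 5 of experiment 1 (7.86 to 7.99), as was the case for 2.74% of all genes. Ckm ran the other way at 0.070 ± 0.027, and at 0.041 with the sham array among the controls. Gatm stood at −0.20 ± 0.11, Ak3 at 0.091 ± 0.051, Ckmt2 at 0.056 ± 0.043, but −0.030 after quantile normalization, Slc6a8 at −0.040 ± 0.056 (−0.094 to −0.0076 without 1 array in turn), Ak1 at 0.030 ± 0.049 (0.0012 to 0.063) and Gamt at −0.0020 ± 0.013. Without either control array Gatm was −0.094 and Ak3 0.037. Limma called 0 of 8 members and 0% of all genes for the experiment, the adjusted p being 0.375 for Ckb and 0.39 for Ckm. At an unadjusted p under 0.05 it took these 2 members, 1 in each direction, while 12.8% of all genes passed that level.

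Marker lists of cell types stand beside these differences, and for 2 of the 10 lists the injected arrays of the experiments did not overlap. The heart muscle mean was 11.38 to 11.41 in experiment 9 and 11.26 to 11.32 in experiment 1, the direction of the Ckm difference. Ckm itself overlapped between the experiments, at 10.88 to 10.98 in experiment 9 and 10.79 to 10.99 in experiment 1. It also overlapped when measured against that mean on the same array. The macrophage mean was 7.34 to 7.49 in experiment 9 and 7.58 to 7.86 in experiment 1. On both lists the sham array of experiment 9 lay within the range of experiment 1, at 11.31 (heart muscle) and 7.61 (macrophage). The other 8 lists overlapped. Of these, the smooth muscle and pericyte list, whose cells carry Ckb, averaged 9.03, 8.84 and 8.87 on vesicle, cell and control array 1 of experiment 9. In experiment 1 it averaged 9.18 and 9.18 on the vesicle arrays, 9.10 and 9.25 on the cell arrays and 9.01 on the control array. Its widest members were Acta2, smooth muscle actin, which spanned 1.33 log2 units over the 9 arrays, and Cnn1, calponin, which spanned 0.57. This list was 0.089 from Ckb by the root mean square difference of centred log2 values. Ckb was only 0.068 from its own mean on that measure, nearer than to any of the 10 lists. The nearest list, nerve and glia, stood at 0.069, with its measured genes below background. The part of these markers in the Ckb, Ckm and other differences was not tested.

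Gatm was the member with the widest spread. The 3 genes above background with the profile most like that of Gatm, by the root mean square difference of gene-centred log2 values over the 9 arrays, were Csf1r (0.069), Zbtb11os1 (0.084) and Tmsb10 (0.086), out of 6667 candidates. Csf1r is the receptor for macrophage colony-stimulating factor and a defining macrophage marker. The list of 7 macrophage genes, which includes Csf1r, had its highest means, 7.86 and 7.81, on vesicle array 3 and control array 2, the arrays with the highest Gatm. Control array 1, the lowest for Gatm, had a macrophage mean of 7.35, close to the lowest, 7.34 on cell array 1. The pairing did not hold on all arrays: Gatm was also low on cell array 3 (6.31) and vesicle array 2 (6.32), where the macrophage means were 7.65 and 7.58. The widest macrophage genes were Lyz2, a lysozyme, and Mrc1, a mannose receptor, which spanned 1.16 and 0.66 log2 units. By group the macrophage mean ran from 7.49 to 7.86 on vesicle arrays, from 7.34 to 7.76 on cell arrays and from 7.35 to 7.81 on control arrays. This pairing was chosen after the values had been seen, Gatm was not above background, and the part of macrophages in its values was not tested.

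For the next most variable members the same measure gave Fastk (0.026), Tango2 (0.033) and Tmem170b (0.034) as the genes most like Ckm. For Slc6a8 they were Vac14 (0.033), Ccdc6 (0.034) and Kdelr2 (0.035). These distances are given as a description.

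**Figure D3:**
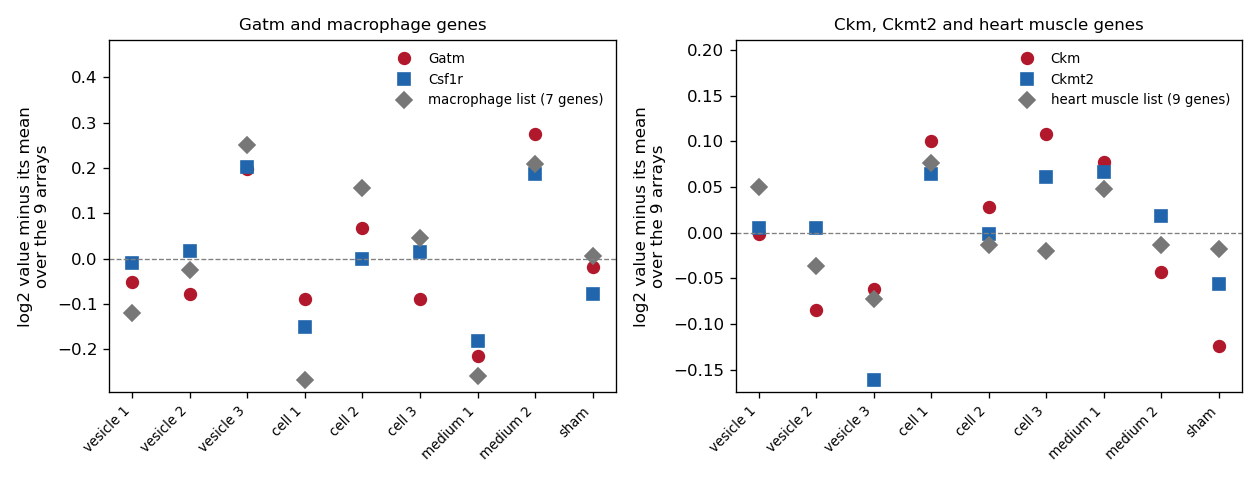
Log2 values minus their mean over the 9 arrays, for Gatm with Csf1r and the macrophage list (left) and for Ckm and Ckmt2 with the heart muscle list (right), 1 position per array. On the left the highest points are vesicle array 3 and control array 2, and on the right Ckmt2 on vesicle array 3 is the lowest point.

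Medium and sham could be compared only by value, in experiment 9, with 1 array each. Ckm stood at 10.96 on control array 1 and 10.76 on the sham array, a difference of 0.20 log2 units or 1.15-fold. It was the 1 member past a difference of 0.2, a size reached by 7.69% of all genes and by 11.3% of the genes above background. Ckmt2 was 0.12 higher in the control than in the sham heart, and Ak3 was 0.082 higher. Gatm differed by −0.20, Slc6a8 by −0.13, Ak1 by −0.016, Gamt by 0.013 and Ckb by 0.0092. Against control array 2 of the other experiment, the sham array was lower for Ckm as well, by −0.081. With 1 sham heart there is no replicate check. Scar genes also differed between these 2 arrays: the fibroblast and scar list averaged 9.08 on control array 1 and 9.51 on the sham array. Neither mean was the extreme, since cell array 1 stood at 9.01 and vesicle array 2 at 9.52. The widest gene of the list, Postn (periostin, a scar matrix protein), was at its lowest of the 9 arrays on control array 1 (8.92). It was at its highest on the sham array (9.92). Col3a1, a fibrillar collagen, spanned 0.69 log2 units over the 9, but from cell array 1 (8.81) to cell array 3 (9.50). The heart muscle mean was 11.38 on control array 1 and 11.31 on the sham array. The part of these lists in the Ckm difference was not tested.

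Other genes of high-energy phosphate transfer were read as a list. It held 38 genes (further adenylate kinases, nucleotide carriers and channels of mitochondria, AMP deaminases, nucleoside diphosphate kinases, AMP-activated kinase subunits and nucleotide breakdown enzymes), of which 35 were measured. Limma called 0 of the 35 in either direction in each of the 4 comparisons, as it called 0% of all genes. The median log2 difference of the list after vesicles was −0.0079, against −0.012 over all genes. After cells it was 0.0065 against −0.0064 over all genes, and between vesicles and cells −0.018 against −0.00070.

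The genes named here had the lowest unadjusted p, and none passed adjustment over all genes (adjusted p of 0.675 or more against medium). After vesicles these were Nme3 (−0.071 ± 0.023) and Nme4 (−0.061 ± 0.027), both nucleoside diphosphate kinases, Ak5, a cytosolic adenylate kinase best known from brain (−0.086 ± 0.029), and Vdac1, the channel of the outer mitochondrial membrane (−0.050 ± 0.023). After cells they were Ak5 (−0.097 ± 0.029), Nt5c1a, which splits AMP to adenosine (0.16 ± 0.061), Ampd3, an AMP deaminase (0.11 ± 0.056), and Prkab1, a subunit of AMP-activated kinase (0.049 ± 0.025). Between vesicles and cells, Prkaa1, a catalytic subunit of that kinase, differed by 0.11 ± 0.038, Nt5c1a by −0.12 ± 0.054, Nme3 by −0.055 ± 0.020 and Vdac1 by −0.054 ± 0.020. Ak5 and Nme4 lay below the background level on every array.

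Between the experiments 11 of the 35 had an unadjusted p under 0.05, 8 higher and 3 lower in experiment 9, where 12.8% of all genes passed that level. They were led by Ak5 (−0.13 ± 0.023), Slc25a3, the mitochondrial phosphate carrier (0.10 ± 0.021), Prkab1 (0.090 ± 0.020) and Vdac1 (0.079 ± 0.018). The lowest adjusted p of the list was 0.255 here, from limma over all genes.

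**Figure D4:**
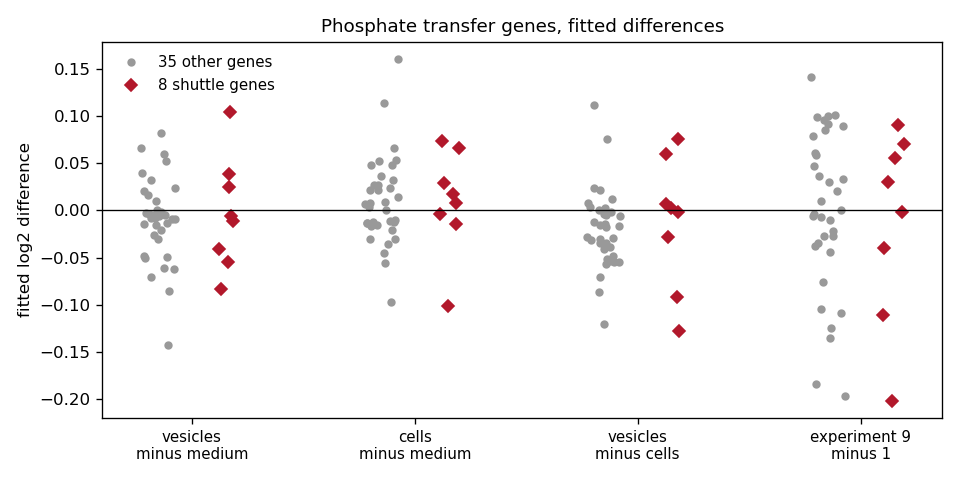
Fitted log2 differences of 35 other phosphate transfer genes (grey circles) and the 8 shuttle genes (red diamonds) in the 4 comparisons. Against medium the members reach at most 0.10 in size, Ckm reaches −0.13 in vesicles minus cells, and the spread is widest between the experiments, where Gatm is at −0.20.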

How the data were processed

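RNA had been extracted with Trizol from frozen whole hearts and labelled by an Affymetrix whole-transcript assay, per the labels' protocols. What the authors deposited is 1 log2 summary for each probe set and array. The log2 scale was read from their range (1.55 to 14.17), and for background correction and normalization the authors' method is not given in the sources here. Partek is named in the submitters' processing notes without a role.

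Of 80202 probe sets, 30604 had 1 gene symbol in the platform table, updated through Entrez numbers (RefSeq, GRCm38.p6). The probe set with the highest mean was kept, which left 30142 genes, 61.1% of them with identical values on 3 or more arrays. Shares of all genes given for an order between arrays include these tied genes, in which a strict order is harder to meet. Groups follow the treatment labels, and replicates were numbered by accession, which pairs no arrays. Differences were fitted across all genes with limma 3.58.1 (lmFit, eBayes, R 4.3.3), with treatment means and the experiment as a fixed block over 8 arrays (4 residual degrees of freedom). Tests were two-sided at an adjusted p of 0.05 (Benjamini-Hochberg). Array number limits the precision. The steps were tested on simulated data.

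The rule for named genes took all 8 members, the 4 list genes with the lowest unadjusted p per comparison, the 2 widest markers of a list where it is described, and the 3 genes most like each of the 3 most variable members. Members, lists and tests were chosen with earlier results of these data known. Alternatives changed the block, the sham array, the scaling, the filters, the probe set rule, the moderation, the block of a further number in the titles (VTS) and the arrays included.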

Additional observations from a re-analysis of the deposited data

Results flagged for a closer look

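For 2 genes every treated array of experiment 9 lay on the other side of its control from every treated array of experiment 1. This order was not counted over all genes. For both genes the control arrays held the lowest and the highest value, so all other arrays lay between them. Control arrays 1 and 2 stood at 6.18 and 6.67 for Gatm and at 9.28 and 9.04 for Ak3. Gatm was not above background on any array. Gatm was higher than its control after vesicles by 0.16 in experiment 9 and differed by −0.22 in experiment 1, and after cells the values were 0.13 and −0.29. The difference between the experiments was 0.38 after vesicles and 0.41 after cells. Ak3 showed the opposite order, with −0.076 and 0.11 after vesicles and −0.095 and 0.11 after cells, which gives −0.19 and −0.20 between the experiments. Each pair shares its control array, so the vesicle and cell values are not independent. A treatment by experiment term in limma, added after seeing the data, did not pass for either gene (adjusted p = 0.647 and 0.578 for Gatm, 0.584 and 0.516 for Ak3, after vesicles and cells) and called 0 genes in all. Groups here hold at most 3 arrays, too few for a check of single outlying arrays.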

How the results depend on the processing

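The 32 fitted member differences were refitted under 13 alternative settings and without each of 8 arrays, and 0 of 612 refits with a test passed adjustment (lowest adjusted p 0.259). For members, 6 settings can change only the test and not the difference (gene filters, probe set rule, moderation, sham as its own treatment). Of the 424 refits that can move it, 379 kept the direction and 45 turned. Of the 32 differences 13 never turned, among them all 4 for Ckm. Differences near 0 have no settled sign. The cause was not tested. Without the experiment block Ckb was 0.012 after vesicles and 0.015 after cells, and Ckmt2 −0.00090 after cells. With arrays centred on their median Ckb was 0.015 and 0.026 after vesicles and cells, Gamt 0.010 and 0.016, Gamt −0.0056 and Ak3 −0.0016 in vesicles minus cells, and Gamt 0.031 in experiment 9 minus 1. Quantile normalization gave −0.0081, −0.0031 and −0.021 after cells for Ckmt2, Slc6a8 and Ak3, 0.010 for Ckb in vesicles minus cells, and −0.030, 0.0055 and −0.014 for Ckmt2, Gamt and Ak1 between the experiments. In experiment 1 alone, with 1 control array, Ckb was 0.0039 and Slc6a8 −0.0047 after cells, and Gamt −0.0068 and Ak1 0.0028 in vesicles minus cells.

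On leaving out 1 array in turn, differences that changed sign ranged after vesicles from −0.22 to 0.17 for Gatm, −0.082 to 0.11 for Ak3, −0.026 to 0.017 for Ckb and −0.015 to 0.079 for Ak1. Gatm turned without vesicle array 2 or control array 2, and so did Ak3. After cells the ranges were −0.28 to 0.11 for Gatm, −0.089 to 0.11 for Ak3, −0.042 to 0.024 for Ckb, −0.011 to 0.022 for Ckmt2 and −0.025 to 0.094 for Slc6a8. In vesicles minus cells they were −0.088 to 0.016 for Ak1, −0.026 to 0.047 for Ak3, −0.033 to 0.040 for Ckb, −0.0077 to 0.0082 for Gamt and −0.0060 to 0.15 for Gatm, and between the experiments −0.0076 to 0.0094 for Gamt.

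Over all genes the count called moved from 0 in some settings, with 0 members called in each. It was 4 after vesicles and 2 between the experiments by least squares without moderation, 2 between the experiments without genes tied on 3 or more arrays (an alternative chosen after seeing the data), and 1 after cells with the sham array among the controls. In experiment 1 alone it was 1662 after vesicles and 1731 after cells. Leaving out 1 array gave 0 to 823 genes after vesicles and 0 to 901 after cells, the highest without control array 1, where the spread of the lone control array is taken from the other groups. Titles also carry a VTS number, whose meaning the labels do not give. With it as a replicate block (3 residual degrees of freedom, added after seeing the data) limma called 0 genes in the 3 treatment comparisons. Ckm in vesicles minus cells was −0.13 ± 0.023 (adjusted p = 0.92), and −0.11, −0.17 and −0.10 within VTS 1, 2 and 3. Vesicle and cell arrays of one VTS number did not all deviate together from their group means (correlations over 6667 genes of −0.21, 0.18 and 0.14). Between different VTS numbers the correlations ran from −0.29 to 0.15. Deviations within so small a group sum to 0, so these correlations cannot decide whether the number marks a pairing. It was not taken as one in the main fit.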
